A study of Homo sapiens with 4 samples.

Results

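QKI, KHDRBS1, KHDRBS3 and SF1 are RNA-binding genes of the STAR family, whose name stands for signal transduction and activation of RNA. They were taken as the genes with these current symbols among the probe sets that have a single gene symbol in the platform annotation. All 4 were found among the 17716 genes named in this way, each with 1 probe set, a small set of probes directed at the same RNA. RNA came from Hs683, a human glioma line, in which QK (the older symbol of QKI) had been knocked down. In the first group these cells also carried miR-20a (2 arrays), and in the controls they carried miR-NT, a scrambled microRNA without a target (2 arrays). The knockdown was therefore common to both groups, and no array of cells with intact QKI was analysed here. The labels give neither the knockdown reagent, nor the number of clones, nor whether replicates were separate cultures, so that the spread between arrays may be technical.

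STAR proteins bind RNA through a KH domain that is extended by flanking conserved segments, and they link signalling to splicing, stability, transport and translation of messenger RNA. QKI is prominent in glia, where in mouse it governs the splicing and nuclear export of myelin transcripts. KHDRBS1, better known as Sam68, is a target of Src-family kinases and a splicing regulator, and KHDRBS3 (T-STAR or SLM2) is its paralog. SF1 is the branch point binding protein that helps to define an intron's 3' end early in spliceosome assembly.

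The added microRNA is shown because it is the variable between the groups. The labels do not name its arm, and the mature 5' arm is given here with its relatives from RefSeq (GRCh38.p14), 5′ to 3′, with the seed (bases 2 to 8) in capitals. hsa-miR-20a-5p lies at chr13:91351072-91351094 on the plus strand. This seed was carried by 8 mature human microRNAs in RefSeq, and the lines below give miR-20a-5p and the 5 others that are closest to it over their full length.

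hsa-miR-20a-5p: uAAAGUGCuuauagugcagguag

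hsa-miR-17-5p: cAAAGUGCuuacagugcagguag

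hsa-miR-20b-5p: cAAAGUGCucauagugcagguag

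hsa-miR-106a-5p: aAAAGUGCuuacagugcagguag

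hsa-miR-93-5p: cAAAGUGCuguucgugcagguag

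hsa-miR-106b-5p: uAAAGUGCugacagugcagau

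Counted from the 5' end, miR-17-5p, miR-106a-5p and miR-20b-5p each matched miR-20a-5p at 21 of its 23 positions. miR-17-5p differed by U1C and U12C and miR-106a-5p by U1A and U12C. A transcript site that pairs with the seed reads GCACUUU. Transcript sequences of the STAR genes were not used here, so whether any of them holds this site is not reported.

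The 4 arrays had medians between 6.43 and 6.45 on the log2 scale of the deposited values. Genes with a mean below 5.46 formed the dimmest 30% and were left out of the main test, which then held 12401 genes. QKI and KHDRBS1 were above this floor, and KHDRBS3 and SF1 were below it. Of the marker genes for astrocytes and glioma, vimentin (VIM) and CD44 were above the floor and GFAP, NES, S100B, SLC1A3 and AQP4 were below it. The oligodendrocyte factors OLIG1 and OLIG2 were also below it, and SOX10 was above. In that lineage 5 of 9 measured markers were above the floor. So were 5 of 6 measured neuron markers, 2 of 4 immune markers and 3 of 7 epithelial and endothelial markers. Being above the floor therefore does not separate cell types here.

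QKI was lower with miR-20a on both arrays, the difference did not pass the test over all genes, and the other STAR genes differed by less. Probe set 212262_at, which reads QKI, measured 7.52 and 7.08 with miR-20a, against 8.14 and 7.92 with miR-NT. The groups did not overlap, and miR-20a replicate 2 was the lowest array. The log2 fold change, miR-20a minus miR-NT, was −0.73 (SE 0.16, 95% interval −1.09 to −0.37). This corresponds to a 1.66-fold lower signal, and both miR-20a arrays showed the direction. With limma and Benjamini-Hochberg adjustment over the 12401 genes the adjusted p was 0.106 (unadjusted p 0.00189, limma), the 221st smallest p of the table. A lower log2 fold change was found for 180 genes, or 1.45% of those tested. QKI differed between replicates by 0.43 within the miR-20a pair and by 0.22 within the miR-NT pair, in both cases lower in replicate 2. With an array left out its log2 fold change lay between −0.95 and −0.51. Without miR-20a replicate 1 (−0.95) or replicate 2 (−0.51) QKI passed the threshold, but the remaining miR-20a array is then assumed to vary like the miR-NT arrays, and 1869 or 260 genes passed. In a bulk sample, fewer cells that express QKI and less QKI RNA per cell cannot be told apart. Every array came from knockdown cells, so the QKI signal is what the knockdown left. The labels give no separate measure of its strength in each group, and its part in the QKI difference was not tested.

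**Figure D1:**
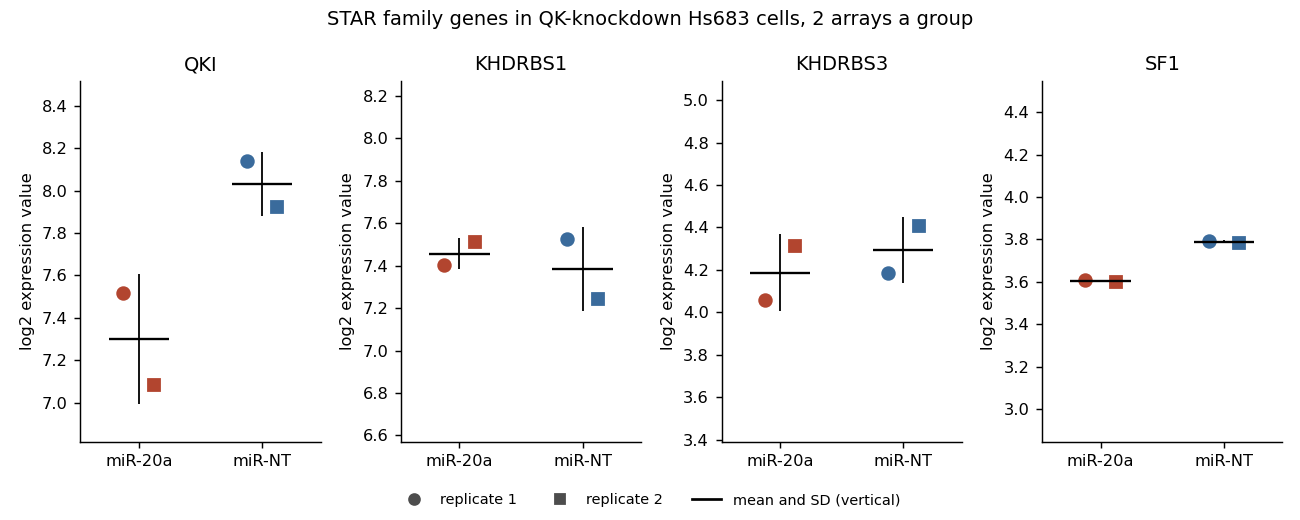
Log2 expression value of each STAR gene on each array, miR-20a left and miR-NT right, with the mean (horizontal bar) and SD (vertical bar) of the 2 arrays in each group; every panel spans the same height. QKI lies at 7.52 and 7.08 with miR-20a and at 8.14 and 7.92 with miR-NT, and the other panels show smaller differences.

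QKI had the same order across the arrays as the 5' control signals, which fall when RNA is degraded or labelled incompletely. ACTB 5' signal was 11.59 and 10.43 with miR-20a and 12.78 and 12.66 with miR-NT. GAPDH 5' signal was 13.17 and 12.30 with miR-20a and 13.89 and 13.81 with miR-NT. For QKI and for both controls, miR-NT replicate 1 was highest and miR-20a replicate 2 lowest. Of the genes above the floor, 31.1% were lower with miR-20a without overlap, and the share with this full order was not counted. No 3' control signal was read here, so less ACTB or GAPDH transcript was not separated from RNA quality. The log2 fold change of QKI came to −0.065 in a fit that adjusted for ACTB 5' (limma adjusted p = 0.995) and to −0.15 in a fit that adjusted for GAPDH 5' (limma adjusted p = 0.96). The part of the control signals in the QKI result was not tested further, since both move with the groups over only 4 arrays. The summed log2 level of the 9 measured oligodendrocyte lineage markers was 51.2 and 51.4 with miR-20a and 50.2 and 50.2 with miR-NT. Of these 9, 2 were lower and 7 higher, and OLIG1, OLIG2, MAG and MOBP were below the floor. The largest rises in that sum, PDGFRA (log2 fold change 0.37) and CSPG4 (0.36), had means of 5.77 and 5.97, near the floor. For the 7 astrocyte and glioma markers the sum was 47.7 and 47.2 with miR-20a and 48.5 and 48.5 with miR-NT. CD44 alone, at a log2 fold change of −0.87, made up most of the difference in the astrocyte and glioma sum, in which 4 of the 7 markers were lower and 3 higher, and 5 of the 7 were below the floor. The part of these markers in the QKI result was not tested.

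KHDRBS1, the Src substrate of the family, overlapped between the groups. Probe set 214185_at measured 7.40 and 7.51 with miR-20a and 7.52 and 7.24 with miR-NT. Both miR-20a arrays lay between the miR-NT arrays. Its log2 fold change was 0.074 (SE 0.12, 95% interval −0.21 to 0.36; limma adjusted p = 0.724), which as a linear ratio leaves room for anything from 0.864 to 1.28. The sign of this value was not stable. It was 0.12 after quantile normalization. Leaving out miR-20a replicate 1 gave 0.13, miR-20a replicate 2 gave 0.021, miR-NT replicate 1 gave 0.21 and miR-NT replicate 2 gave −0.067, and the fits that adjusted for ACTB 5' and GAPDH 5' gave −0.042 and −0.029.

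KHDRBS3, a paralog of KHDRBS1, was dim on every array. Probe set 230249_at measured 4.06 and 4.31 with miR-20a and 4.18 and 4.41 with miR-NT. The groups overlapped, and replicate 2 was the higher array in both. In the limma fit without the filter on dim genes its log2 fold change was −0.11 (SE 0.13, 95% interval −0.40 to 0.19, adjusted p = 0.641). Its sign turned when miR-20a replicate 1 (0.020) or miR-NT replicate 2 (0.0029) was left out. Omitting miR-20a replicate 2 gave −0.24, omitting miR-NT replicate 1 gave −0.22, and the fits that adjusted for ACTB 5' and GAPDH 5' gave −0.51 and −0.46.

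SF1, the branch point binding protein, was also dim on every array and varied little within groups. Probe set 1555749_at measured 3.61 and 3.60 with miR-20a and 3.79 and 3.78 with miR-NT. Both miR-20a arrays were lower, and the SD was 0.0041 with miR-20a and 0.007 with miR-NT (n = 2 each). The log2 fold change was −0.19 (SE 0.09, 95% interval −0.40 to 0.03; limma adjusted p = 0.342 without the filter), or 1.14-fold lower. It was between −0.19 and −0.18 with any array left out and −0.18 with either 5' covariate. SF1 is a general splicing factor, and which of its transcript forms this probe set reads was not established, so the low signal does not give the level of the gene as a whole.

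Of the 4 STAR genes, 0 passed the limma test, and 1, QKI, was at an unadjusted p under 0.05. Among the genes above the floor, 0% were higher and 0.00806% (1 gene) lower at an adjusted p under 0.05, with 722 higher and 1633 lower at an unadjusted p under 0.05. Without the filter these shares were 0% and 0.00564%, with 1095 higher and 1924 lower at an unadjusted p under 0.05. QKI and SF1 had lower values with miR-20a without overlap. The same was true of 31.1% of the genes above the floor and of 27.2% of all genes, and with only 4 genes the count of 2 was not read as a result. The 4 log2 fold changes had a median of −0.15, where that of all 17716 genes was 0.0034.

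**Figure D2:**
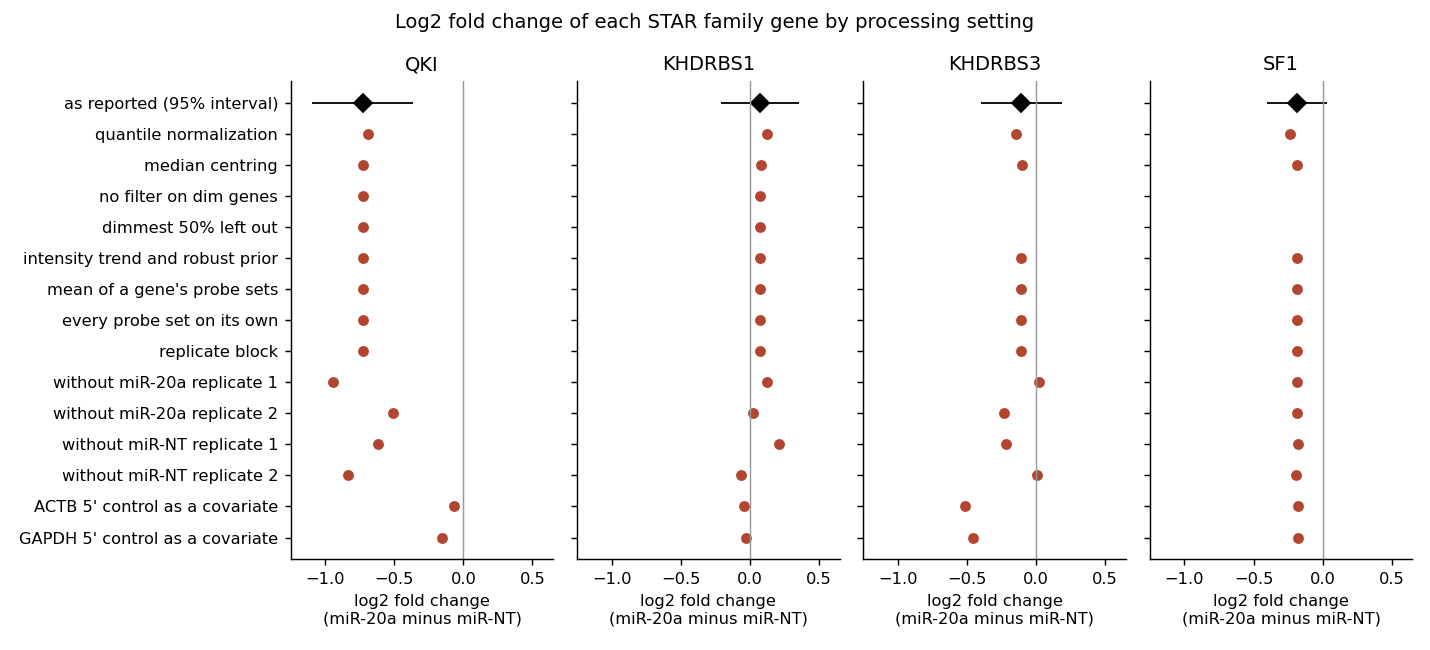
Log2 fold change (miR-20a minus miR-NT) of each STAR gene as reported (black diamond, with its 95% interval) and under each alternative setting (points); KHDRBS3 and SF1 have no points for the settings on the dim filter. QKI stays below 0 in every row shown, from −0.95 to −0.065, and KHDRBS1 and KHDRBS3 have points on both sides of 0.

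The change of QKI was then set against that of each other member on the same array. KHDRBS2, a paralog of KHDRBS1 close to the floor, is not a member and was not compared. Of the 3 relatives compared, only KHDRBS1 is above the floor. KHDRBS3 and SF1 are below it and may not follow an array's brightness, so the differences against them add little to the QKI values alone. The log2 value of QKI minus that of KHDRBS1 was 0.11 and −0.43 with miR-20a, against 0.61 and 0.68 with miR-NT. The change in this difference was −0.80. QKI minus KHDRBS3 was 3.46 and 2.77 with miR-20a and 3.96 and 3.52 with miR-NT, a change of −0.62. QKI minus SF1 was 3.91 and 3.48 with miR-20a and 4.34 and 4.14 with miR-NT, a change of −0.54. In all 3 comparisons both miR-20a arrays were below both miR-NT arrays. The exact two-sided permutation p was 0.333 in each (n = 2 each), the smallest this test can give with 2 against 2 arrays, so it cannot reach 0.05 here. Levels of different probe sets are not comparable, so only the change in each difference is interpretable. Leaving out miR-20a replicate 2 gave changes of −0.53, −0.28 and −0.33 against KHDRBS1, KHDRBS3 and SF1, and the change against KHDRBS3 was −0.97 with miR-20a replicate 1 omitted and −0.40 with miR-NT replicate 1 omitted. The 3 changes share the QKI values and are not independent of each other.

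**Figure D3:**
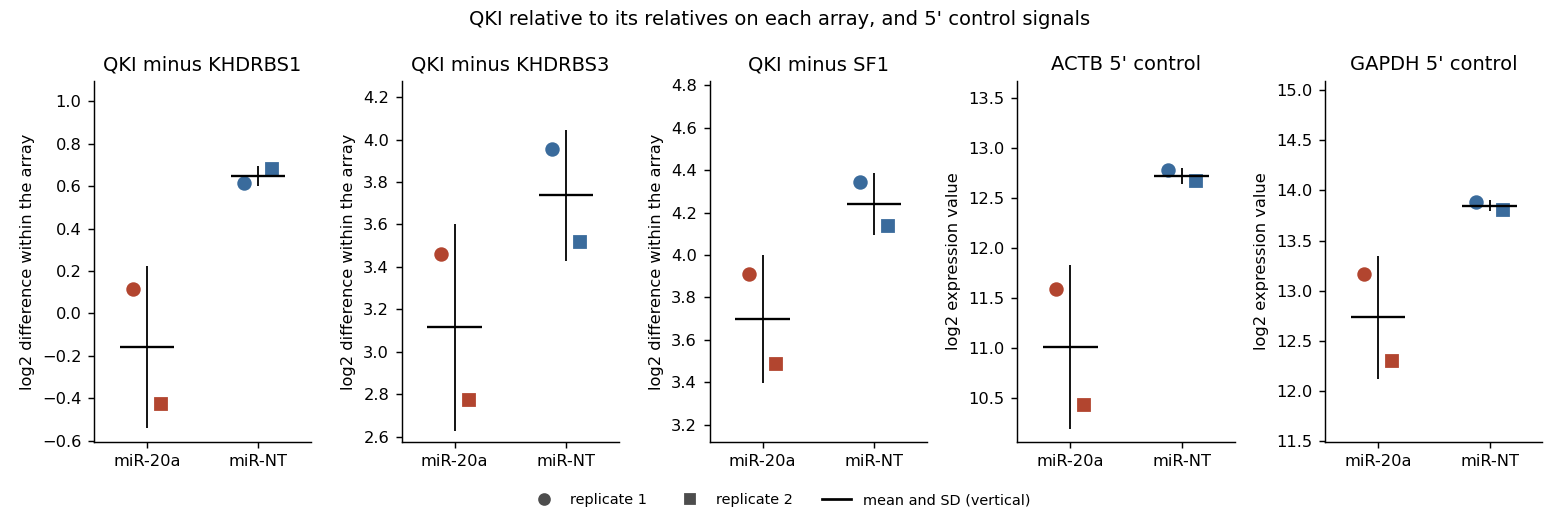
Left 3 panels: log2 value of QKI minus that of KHDRBS1, KHDRBS3 or SF1 on each array; right 2 panels: log2 values of the ACTB and GAPDH 5' controls, on a wider axis; miR-20a left, miR-NT right, bars give mean and SD of 2 arrays. Every panel has both miR-20a arrays below both miR-NT arrays, with miR-20a replicate 2 lowest.

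The tested genes whose values followed those of QKI most closely were found by the Euclidean distance between gene-centred log2 values over the 4 arrays. The nearest was PRKAR1A, a regulatory subunit of protein kinase A, at a distance of 0.0231. It measured 9.78 and 9.34 with miR-20a and 10.42 and 10.17 with miR-NT. The proline synthesis enzyme ALDH18A1 followed at 0.0232, with 8.27 and 7.82 with miR-20a and 8.88 and 8.65 with miR-NT. FBXO7, an F-box protein, was at 0.046, MPDU1, which acts in the use of mannose-phosphate-dolichol, at 0.0516, and WTAP, a subunit of the RNA adenosine methylation complex, at 0.0565. The log2 fold changes of these 5 genes lay between −0.77 and −0.70, and none of them passed the limma test (adjusted p from 0.101 to 0.119). Selection by distance on the same arrays fixes this likeness to QKI in advance, so it is not a separate result.

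Different genes were nearest to the other members. KHDRBS1 was followed by TREML5P, DCTN5 and AFAP1-AS1, at distances from 0.0183 to 0.0206. LY86, ANO8 and STARD9 were nearest to KHDRBS3, at 0.0255 to 0.0326. DCAF7, DTX2P1-UPK3BP1-PMS2P11 and KIF1B were nearest to SF1, at 0.00693 to 0.00994. With 4 arrays, likeness of this kind describes these arrays only.

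**Figure D4:**
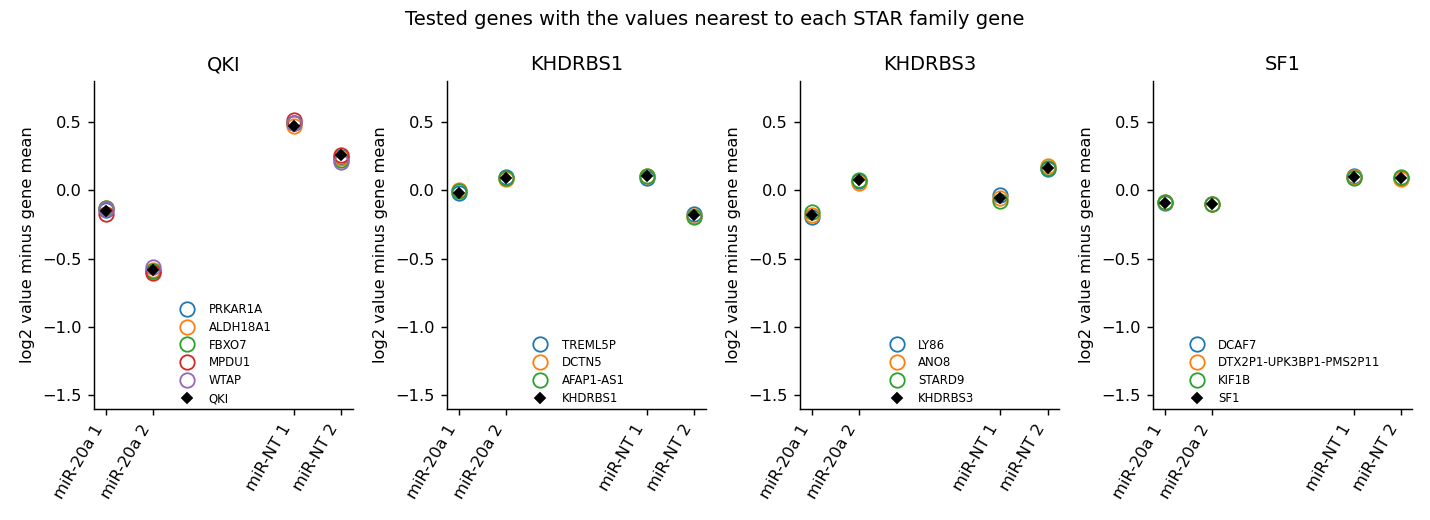
Log2 values minus each gene's own mean on the 4 arrays for each STAR gene (black diamonds) and the tested genes nearest to it (open circles). The circles lie on the diamonds, and the QKI panel has the widest range of the 4.

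Genes related to the family by domain or by function were followed as 6 lists, and 0 of their tested members passed the limma test over all genes in either direction. For other KH-domain RNA-binding genes, 24 of them tested, the log2 fold changes had a median of −0.17, with 15 negative and 9 positive. Of these, 6 were at an unadjusted p under 0.05 (25%, against 19% of all tested genes), and the groups did not overlap in 11 with lower and 7 with higher values (45.8% and 29.2%, against 31.1% and 25.1% of all tested genes). Over all tested genes the median was −0.023, with 53.8% negative. AKAP1, which anchors protein kinase A at mitochondria, measured 6.72 and 6.26 with miR-20a and 7.66 and 7.30 with miR-NT (log2 fold change −0.99, SE 0.18, limma adjusted p = 0.0949). ASCC1, a subunit of a transcriptional coactivator and repair complex, measured 7.73 and 7.78 with miR-20a and 8.32 and 8.28 with miR-NT (log2 fold change −0.54, SE 0.10, limma adjusted p = 0.0949). Both were lower without overlap, and only AKAP1 was lower again in miR-20a replicate 2. The poly(C)-binding protein PCBP2 was at −0.40 and HDLBP, the multi-KH protein vigilin, at −0.62. KHDRBS2, the remaining paralog of KHDRBS1, measured 5.59 and 5.66 with miR-20a and 5.29 and 5.70 with miR-NT, close to the floor and overlapping. The list's median was −0.065 after quantile normalization, −0.031 over 30 genes without the dim filter, −0.087 when miR-20a replicate 2 was left out and −0.095 when miR-NT replicate 1 was. Adjusting for ACTB 5' or GAPDH 5' turned it to 0.12 or 0.098.

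SF1 hands the branch point over to the U2 snRNP, and its partners were read from the second list. It held 19 tested genes, 13 with a negative and 6 with a positive log2 fold change (median −0.055). Of these, 3 were at an unadjusted p under 0.05 (15.8%, against 19% of all tested genes). U2AF2, which binds the polypyrimidine tract and contacts SF1, measured 7.40 and 7.12 with miR-20a and 8.25 and 7.86 with miR-NT (log2 fold change −0.79, SE 0.16, limma adjusted p = 0.0963). Its partner U2AF1, which reads the 3' splice site, measured 7.89 and 7.88 with miR-20a and 8.17 and 8.13 with miR-NT (−0.26, SE 0.09, limma adjusted p = 0.216). Neither overlapped between the groups. The same held for 6 list members with lower and 4 with higher values (31.6% and 21.1%, against 31.1% and 25.1% of all tested genes). SF3A1 was at −0.58 and SF3B1 at −0.27, both subunits of the U2 snRNP. Quantile normalization moved the list's median to 0.054, leaving out miR-20a replicate 1 to −0.11, leaving out miR-20a replicate 2 to 0.010, and adjusting for ACTB 5' or GAPDH 5' to 0.074 or 0.068, so it has no settled sign.

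The list of KHDRBS1 protein partners includes kinases that phosphorylate it. It had negative log2 fold changes in 10 of 13 tested genes (median −0.22), and 7 of the 13 were at an unadjusted p under 0.05. The groups did not overlap in 9 members with lower and 2 with higher values, which is 69.2% and 15.4% of the list, against 31.1% and 25.1% of all tested genes. Of all tested genes 19% were at an unadjusted p under 0.05, in either direction. SMARCA2, an ATPase of the SWI/SNF complex, measured 6.70 and 6.21 with miR-20a and 7.43 and 7.42 with miR-NT (log2 fold change −0.97, SE 0.16, limma adjusted p = 0.0812). The Src-family kinase FYN measured 7.16 and 7.09 with miR-20a and 7.80 and 7.49 with miR-NT (−0.52, SE 0.12, limma adjusted p = 0.124). SMARCA2 had the smallest p of the list, and both genes were lower on both miR-20a arrays. The adaptor NCK1 was at −0.62 and the mitotic kinase CDK1 at −0.38. The kinases did not share 1 direction. SRC was at −0.29, while LCK, also of the Src family and near the floor, was at 0.28, higher without overlap. MAPK3 was at 0.024. Leaving out miR-20a replicate 2 moved the list's median to −0.087, and adjusting for ACTB 5' or GAPDH 5' to 0.048 or −0.016.

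Published RNA targets of QKI were mixed. Among 11 tested genes, 8 had negative and 3 positive log2 fold changes (median −0.075). Of the 11, 4 were at an unadjusted p under 0.05 (36.4%, against 19% of all tested genes). Leaving out miR-20a replicate 1 moved the median to −0.19, miR-20a replicate 2 to −0.044 and miR-NT replicate 1 to −0.12. It was −0.039 after quantile normalization, −0.17 when a gene's probe sets were averaged, and −0.026 and −0.046 adjusted for ACTB 5' and GAPDH 5'. CD44, the hyaluronan receptor, measured 10.53 and 10.08 with miR-20a and 11.24 and 11.12 with miR-NT (log2 fold change −0.87, SE 0.15, limma adjusted p = 0.0949). The membrane skeleton protein ADD3 was at −0.35 and the actin cross-linker ACTN1 at −0.42, while the spectraplakin MACF1 was at 0.25 (limma adjusted p from 0.191 to 0.251). The myelin transcripts MBP and CNP, the classic targets in mouse, were at 0.23 and −0.075, and MBP measured 5.98 and 6.33 with miR-20a and 5.89 and 5.96 with miR-NT. The array gives a total signal per probe set, so the splicing of these transcripts was not measured.

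Splicing targets of KHDRBS1 numbered 6 tested genes, 4 with negative and 2 with positive log2 fold changes (median −0.46). All 4 with lower values were at an unadjusted p under 0.05 and did not overlap, where 31.1% of all tested genes were lower without overlap and 19% were at such a p in either direction. SRSF1, itself a splicing factor, measured 8.39 and 8.19 with miR-20a and 9.33 and 9.18 with miR-NT (log2 fold change −0.97, SE 0.11, limma adjusted p = 0.0727). The probe sets of SRSF1, SMARCA2, MAPK3, SF3B1, ACTN1 and MACF1 carry the suffix that Affymetrix gives to sets with possible cross-hybridization. The apoptosis regulator BCL2L1 measured 5.61 and 5.44 with miR-20a and 6.23 and 5.92 with miR-NT (−0.55, SE 0.13, limma adjusted p = 0.122). Its mean of 5.80 was near the floor. SGCE was at −0.38. CD44 belongs to this list as well. Adjusting for ACTB 5' or GAPDH 5' moved the median to 0.036 or −0.052.

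Other regulators of alternative splicing numbered 17 tested genes, 10 with negative and 7 with positive log2 fold changes (median −0.10). Of the 17, 7 were at an unadjusted p under 0.05 (41.2%, against 19% of all tested genes). MBNL1, a regulator of developmental splicing switches, measured 7.22 and 6.76 with miR-20a and 7.62 and 7.58 with miR-NT (log2 fold change −0.61, SE 0.15, limma adjusted p = 0.132). TRA2B was at −0.43 and TIA1 at −0.40, and RBFOX3, a neuronal factor near the floor, was at 0.32. Leaving out miR-20a replicate 1 moved the median to −0.28, miR-NT replicate 2 to −0.24, miR-20a replicate 2 to −0.041 and miR-NT replicate 1 to −0.042, and quantile normalization to −0.0084. Adjusting for ACTB 5' or GAPDH 5' moved it to 0.071 or 0.032.

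**Figure D5:**
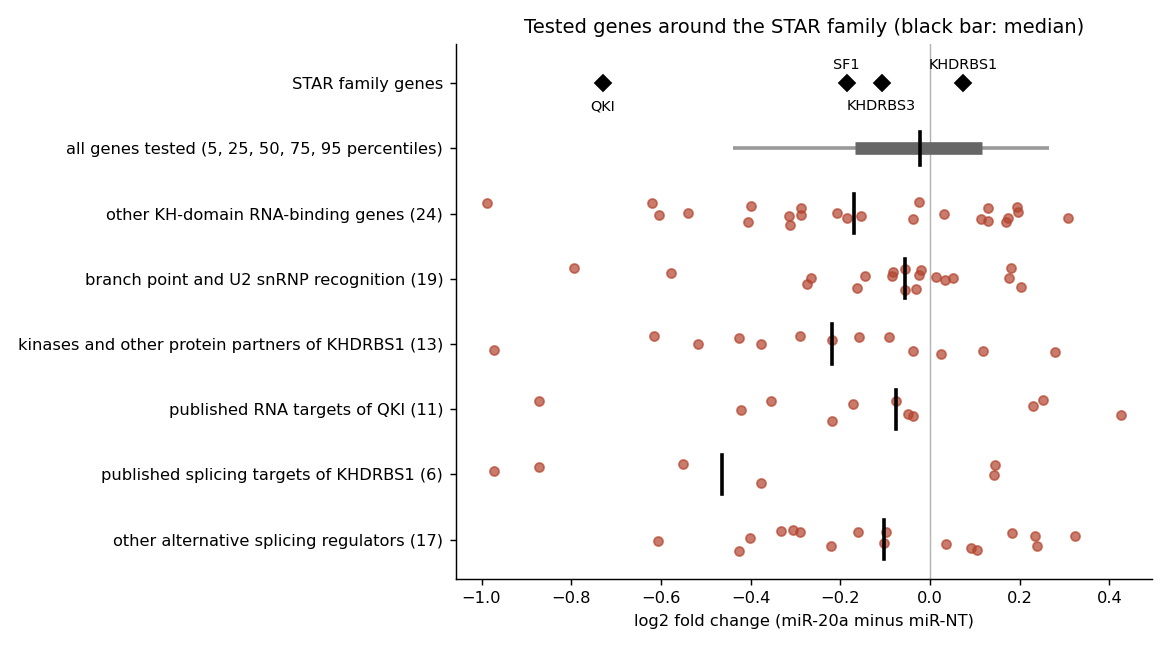
Log2 fold change (miR-20a minus miR-NT) of the STAR genes (diamonds), of all 12401 tested genes (grey bars, percentiles) and of the tested members of each list (points, their number in brackets), with medians as black bars. QKI, at −0.73, lies outside the grey bar of all genes, and the lists' medians lie between −0.46 and −0.055.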

How the data were processed

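The authors deposited what, from their range, are log2 values, with a row for each of 20323 probe sets. Per the labels' protocols, 6 ug of total RNA went into biotinylated cRNA, and affy (R) is the software in the submitters' processing notes. How background and normalization were handled, and how probe sets were chosen, is not given in the sources used here. Of these, 18060 had 1 gene symbol, 886 several and 1375 none, 2 control probe sets with a symbol were not used as genes, and 18034 gene identifiers matched RefSeq. The probe set with the highest mean stood for a gene. The files name no build, so no gene positions are printed.

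Tests used limma 3.58.1 (R 4.3.3) across the whole table, with moderated two-sided statistics, no covariate and a threshold of 0.05 after Benjamini-Hochberg adjustment (2 residual and 5.53 prior degrees of freedom). Dim members were read from the fit without the filter. The SE of a log2 fold change is that of the moderated fit, and 2 arrays a group limit its precision. The fit was tested on simulated data.

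Members and lists were chosen with earlier results of these data known. Named genes were the members, the 5 (QKI) or 3 tested genes nearest to each and up to 4 of each list with the smallest p. MBP, CNP, KHDRBS2, SRC, LCK and MAPK3 were added for their roles. Alternatives covered normalization, the dim filter, the variance prior, probe sets, the replicate block, each array left out and both 5' controls as covariates.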

Additional observations from a re-analysis of the deposited data

How the results depend on the processing

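QKI and SF1 were below 0 under every alternative run, and SF1 lay below the floor. QKI came to −0.065 and −0.15 when adjusted for ACTB 5' and GAPDH 5' (limma adjusted p = 0.995 and 0.96). QKI passed the threshold in 2 of the fits that leave out an array, at log2 fold changes of −0.95 (miR-20a replicate 1 left out) and −0.51 (replicate 2 left out), the lowest and highest of those 4 fits. With a group reduced to 1 array, its spread is assumed to equal that of the other group, and the counts of called genes ran from 0 to 1869. With an array left out KHDRBS1 ran from −0.067 to 0.21 and KHDRBS3 from −0.24 to 0.020, and KHDRBS1 was −0.042 and −0.029 when adjusted for ACTB 5' and GAPDH 5'. The change of QKI minus each other member kept its sign with any array left out.

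Genes past the threshold numbered 1 as reported, 6 after quantile normalization, 47 after median centring, 4 with the dimmest 50% left out, 24 with an intensity trend and robust prior, 6 adjusted for ACTB 5' and 24 adjusted for GAPDH 5'. With the replicate block the count was 0 (limma; 1024 genes higher and 2127 lower at an unadjusted p under 0.05), and QKI was at −0.73 (adjusted p = 0.139). The labels do not say that a shared number marks a shared batch, and same-numbered deviations correlated at 0.267 across genes.

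The median of other KH-domain genes was −0.065 after quantile normalization, −0.031 without the dim filter, and 0.12 and 0.098 adjusted for ACTB 5' and GAPDH 5'. That of branch point and U2 genes was 0.054 after quantile normalization, 0.074 and 0.068 adjusted for the same controls, and −0.11 to 0.010 with an array left out. For partners of KHDRBS1 it was −0.26 to −0.087 with an array left out, and 0.048 and −0.016 adjusted. For QKI targets it was −0.17 when a gene's probe sets were averaged and −0.19 to −0.044 with an array left out. For KHDRBS1 splicing targets it was 0.036 and −0.052 adjusted. For other splicing regulators it was 0.071 and 0.032 adjusted, and −0.28 to −0.041 with an array left out. The cause of these shifts was not tested. The filter settings gave no value for the dim members KHDRBS3 and SF1.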
